A study of Mus musculus with 2 samples.

Results

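Retnlg-high late neutrophils are the non-cycling neutrophils with the most Retnlg RNA in a set of mouse bone marrow cells sorted for Kit and CD45.2. They were picked from each library by their RNA. A barcode was a member if at least 2% of its gene UMIs (unique molecular identifiers, 1 per captured transcript) came from Ltf, Camp, Ngp, S100a8, S100a9 and Lcn2 together, if it held at least as many Ltf as Fcnb UMIs, if Mki67 and Top2a summed to at most 1 UMI, and if it held at least 20 Retnlg UMIs. Of 15710 barcodes in the deposited matrices 14068 were kept, and 2189 of those were members, 1025 of them control cells and 1164 from the library labelled Utx-deleted. The levels of the genes in this definition chose the cells, so they are given as description only.

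The cells were taken 10 weeks after transplantation, and CD45.2 is an allelic form of the leukocyte protein CD45 for which both samples were selected. Both libraries were made by CITE-seq, in which droplets capture a cell's messenger RNA together with the DNA barcodes of antibodies bound to its surface. There was 1 library of controls and 1 in which the labels give Utx, the gene for the histone demethylase UTX (Kdm6a), as deleted. UTX is a subunit of the MLL3 and MLL4 complexes, and the comparison asks what its deletion changes in donor-derived blood cells. The labels give no genotype for the controls, no strain, no sex, no Cre driver and no recipient, and do not say how many animals each library holds or what its 2 hashtags (antibody barcodes that mark pools of cells before mixing) stand for. With 1 library per group no test between conditions was possible. Each difference below is one between these 2 libraries, intervals are 95% intervals that cover counting error only, and values for the cells of each hashtag show the spread inside a library.

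Neutrophils mature in the bone marrow from dividing progenitors that make azurophil granule proteases, through cells that fill their specific granules with lactoferrin (Ltf), the cathelicidin Camp and Ngp, to non-dividing cells that make gelatinase granule proteins and chemokine receptors and leave for the blood. Retnlg encodes a resistin-like secreted protein of late neutrophils, Mmp8 the neutrophil collagenase, Cxcr2 a chemokine receptor needed for release from the marrow, and Fpr1 the receptor for formylated bacterial peptides. Fcnb, a ficolin, belongs to earlier stages.

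C/EBP factors are the transcription factors best known for driving granule genes, and the promoters of 4 neutrophil genes (Retnlg, Ltf and Ngp of the definition, and Mmp8, which it did not use) are shown because each holds the letters TTGCNNAA, a C/EBP-type motif. The promoter of Dusp1, a phosphatase gene that comes up below, is shown because it holds TGACGTCA, the cyclic AMP response element. Sequences are from RefSeq (GRCm38.p6), run from 250 bases before to 50 bases after the transcription start, and have the matches, on either strand, in capitals. They lie at chr16:48872358-48872657 (plus strand, Retnlg), chr9:7558179-7558478 (plus strand, Mmp8), chr9:111019042-111019341 (plus strand, Ltf), chr9:110419558-110419857 (plus strand, Ngp) and chr17:26508423-26508722 (minus strand, Dusp1).
Retnlg: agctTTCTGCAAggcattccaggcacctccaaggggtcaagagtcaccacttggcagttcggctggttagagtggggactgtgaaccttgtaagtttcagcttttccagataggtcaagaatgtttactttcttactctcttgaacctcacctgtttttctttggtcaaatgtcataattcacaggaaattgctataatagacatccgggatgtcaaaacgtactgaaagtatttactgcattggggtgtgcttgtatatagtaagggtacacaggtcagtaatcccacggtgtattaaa
Mmp8: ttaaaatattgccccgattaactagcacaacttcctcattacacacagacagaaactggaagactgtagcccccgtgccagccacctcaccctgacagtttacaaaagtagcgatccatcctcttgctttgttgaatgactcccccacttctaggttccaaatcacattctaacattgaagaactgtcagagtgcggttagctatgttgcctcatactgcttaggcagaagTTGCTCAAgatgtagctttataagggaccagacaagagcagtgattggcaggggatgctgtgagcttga
Ltf: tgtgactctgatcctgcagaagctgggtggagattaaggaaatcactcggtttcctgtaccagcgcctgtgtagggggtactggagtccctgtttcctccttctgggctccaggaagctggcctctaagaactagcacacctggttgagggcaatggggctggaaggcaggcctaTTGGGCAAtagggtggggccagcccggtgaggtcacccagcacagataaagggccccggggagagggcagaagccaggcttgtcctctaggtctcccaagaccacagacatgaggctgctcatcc
Ngp: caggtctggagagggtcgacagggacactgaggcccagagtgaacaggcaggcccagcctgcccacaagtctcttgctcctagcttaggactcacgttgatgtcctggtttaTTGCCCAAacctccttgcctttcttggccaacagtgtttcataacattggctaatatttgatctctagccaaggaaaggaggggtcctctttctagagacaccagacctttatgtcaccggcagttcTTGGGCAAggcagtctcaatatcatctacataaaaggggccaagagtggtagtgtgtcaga
Dusp1: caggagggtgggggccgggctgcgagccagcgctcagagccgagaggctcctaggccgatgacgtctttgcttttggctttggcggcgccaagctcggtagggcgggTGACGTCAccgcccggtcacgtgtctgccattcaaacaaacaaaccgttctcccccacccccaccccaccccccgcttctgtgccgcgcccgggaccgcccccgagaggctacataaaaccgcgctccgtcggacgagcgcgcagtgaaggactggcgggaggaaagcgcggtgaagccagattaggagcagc
TTGCNNAA was found in 6 of 10 promoters of defining and marker genes, against 10.8% of 32851 promoters of the same length (3547). The 10 genes were Retnlg, Mmp8, Cxcr2, Fpr1, Ltf, Camp, Ngp, Lcn2, S100a8 and S100a9. Fcnb, Mki67 and Top2a of the definition were not among them. TGACGTCA was found in 2 of 10 promoters of immediate early genes, those of Dusp1 and Btg2, against 1.79% of all promoters (588). A match says only that the letters are there.

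The members matched their label on the markers that the definition did not name. In counts per 1000000 gene UMIs (CPM), Mmp8 stood at 4813 in control members and 3957 in members of the library labelled Utx-deleted, against 758 and 489 in Retnlg-low neutrophils (the same definition, but under 20 Retnlg UMIs) and 4.85 and 4.42 in kept barcodes outside the neutrophil classes. Cxcr2 stood at 514 and 542 CPM in members, 109 and 63.7 CPM in Retnlg-low cells and 6.76 and 5.50 CPM in the other kept barcodes. Fpr1, at 183 and 220 CPM in members, was at 36.2 and 39.6 CPM in Retnlg-low cells. All 3 markers were therefore highest in the members of each library, in cells chosen by a gene that marks the same stage.

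Depth differed between the libraries within the members. The control library held 122130256 gene UMIs and the other 129736034, and 17 barcode sequences occurred in both libraries, 1 of them among members. Control members had a median of 5957 gene UMIs and 1928 genes, and members of the library labelled Utx-deleted 7346.5 UMIs and 2066 genes. With each cell thinned to 2000 UMIs, for which 2 and 1 members were too shallow, the median was 940 genes in control members and 877 in the others. The share of mitochondrial UMIs was low in both, with medians of 0.296% and 0.349%. Kdm6a itself did not stand apart in the library labelled Utx-deleted: members held 856 Kdm6a UMIs (130 CPM) in the control library and 1086 (120 CPM) in the other, a log2 ratio of -0.12 (interval -0.25 to 0.01). Counting of transcript 3' ends cannot show whether an internal exon is missing, so this neither checks nor contradicts the label.

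Transcripts of other cell types were rare among the members. The summed level of the 9 marker lists for other types ran from 4.10 CPM (dendritic cell) to 54.4 CPM (stem or multipotent progenitor) in control members, and the median member held 0 UMIs of each list in both libraries. In the library labelled Utx-deleted 8 of the 9 lists ran from 2.10 CPM (basophil or mast cell) to 34.1 CPM (stem or multipotent progenitor), and the erythroid list was at 636 CPM, where 1 barcode held 3306 of 3310 Hbb-bs UMIs. Another barcode of that library held 12007 of its 12031 Igkc UMIs. Epx, Il5ra, Siglech, Ms4a1, Gzma and Ppbp, defining genes of eosinophils, plasmacytoid dendritic cells, B cells, cytotoxic lymphocytes and platelets, were at 0 UMIs in members of both libraries. Other genes of those lists were present. The eosinophil list was at 49.4 CPM in control members and 26.7 CPM in the others, with at most 5 and 6 UMIs in any barcode. The T or NK cell list was at 30.5 and 11.6 CPM, with at most 16 and 14 UMIs. Single barcodes held part of the rest: 1 control barcode held 143 UMIs of the B cell list, which was at 25.7 CPM in control members and 2.76 CPM in the others. The most in any control barcode for the megakaryocyte list was 40 UMIs. In the library labelled Utx-deleted the most was 97 UMIs for the dendritic cell list and 77 for the monocyte or macrophage list.

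Members made up 14.4% of kept barcodes in the control library (1025 of 7098, interval 13.6 to 15.3%) and 16.7% in the other (1164 of 6970, interval 15.8 to 17.6%). The difference was 2.26 percentage points (Newcombe score interval 1.06 to 3.46), and its direction was not the same for both hashtags. Among hashtag 1 cells members were 11.8% in the control library and 18.2% in the other, and among hashtag 2 cells they were 17.1% and 15.5%. The hashtag 1 and hashtag 2 shares of the control library thus lay further apart than the libraries themselves. As a share of the non-cycling Ltf-over-Fcnb neutrophils, from which the Retnlg minimum takes them, members were 33.2% of 3090 cells (interval 31.5 to 34.9%) and 33.2% of 3504 cells (interval 31.7 to 34.8%). These equal values held opposite directions by hashtag, at 29.7% and 34.1% in hashtag 1 and at 36.3% and 32.6% in hashtag 2. Cycling Ltf neutrophils were 30.1% of kept barcodes in the control library and 26.4% in the other, and Retnlg-low neutrophils 29.1% and 33.6%. The sort for Kit and CD45.2 can itself set such shares.

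**Figure D1:**
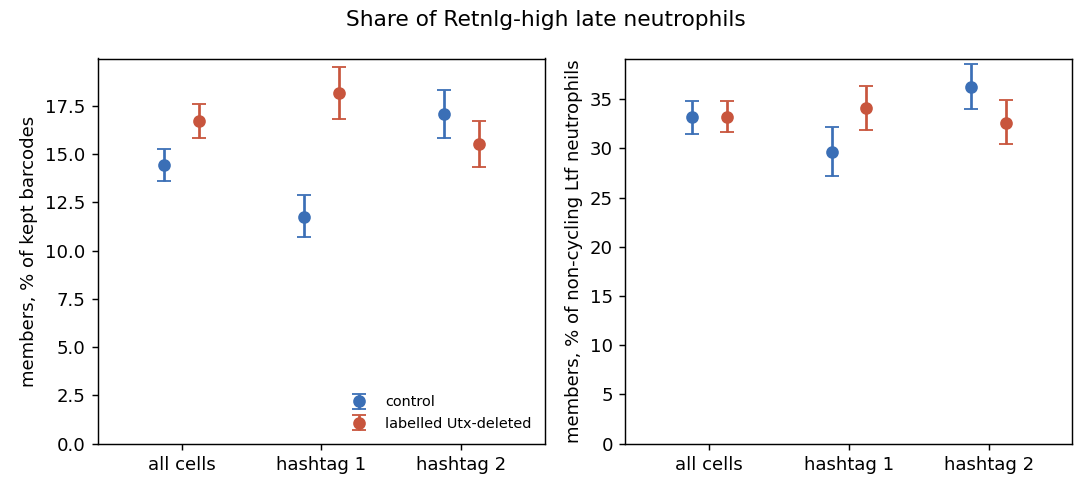
Share of Retnlg-high late neutrophils among kept barcodes (left, %) and among non-cycling Ltf neutrophils (right, %), for all cells and for each hashtag, with exact 95% binomial intervals that cover counting error only. The control library (blue) lies at 11.8% in hashtag 1 and 17.1% in hashtag 2 on the left, below and above the other library's 18.2% and 15.5%.

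Antibody tags, which the definition did not use but which were read in the same cells, placed the members at the Gr1-high, CD117-low end. Gr1 antibody binds Ly6G and Ly6C on maturing neutrophils, and CD117 is Kit, the receptor on which the cells were sorted. The median Gr1 tag count was 2958 UMIs per cell in control members and 2581.5 in members of the library labelled Utx-deleted. In Retnlg-low neutrophils it was 933 and 1180, and in the other kept barcodes 24 and 25. The fold of members over Retnlg-low cells was 3.17 in the control library (3.24 and 3.05 in its hashtags) and 2.19 in the other (1.999 and 2.23). Gr1 medians of members were thus above those of Retnlg-low cells in both hashtags of each library.

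CD117 was low on the members, as it was on Retnlg-low neutrophils. Its median tag count was 13 UMIs in control members and 8 in the others, against 14 and 9 in Retnlg-low cells and 164 and 162 in the other kept barcodes. Only 26 of 1025 control members (2.54%) and 18 of 1164 members of the library labelled Utx-deleted (1.55%) lay above the 10th percentile of the other kept barcodes, which was 32 UMIs and 29.8 UMIs. Kit RNA was at 34.2 CPM in control members and 19.5 CPM in the others (225 and 177 UMIs), against 24.7 and 22.1 CPM in Retnlg-low cells and 196 and 190 CPM in the other kept barcodes. The members thus carried little of the protein on which the labels say the cells were selected, with medians 1 UMI under those of Retnlg-low cells.

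Between the libraries, most tags had lower counts in members of the library labelled Utx-deleted. CD48, an adhesion ligand of most blood cells, had a median of 57 UMIs in control members and 25 in the others, and 77 and 32 in Retnlg-low cells. CD16_32, the low-affinity Fc gamma receptors, had medians of 418 and 275, and CD11b, the integrin subunit Itgam, 204 and 187. As a share of all tag UMIs without the hashtags, Gr1 differed by a log2 ratio of 0.05, CD11b by 0.11, CD16_32 by -0.33 and CD48 by -0.81. The direction of the Gr1 difference depended on the scale, at -0.18 with no scaling and 0.42 for centred log-ratios, and CD16_32 was at 0.034 on the latter scale. CD11b and CD127 also turned with no scaling, from 0.11 to -0.12 and from 0.036 to -0.19. CD48 was lower in the other kept barcodes too, with medians of 828 and 629. CD16_32 (161.5 and 238), CD34 (18 and 26) and Gr1 (24 and 25) had higher medians there in the library labelled Utx-deleted. CD127 had medians of 4 and 2 in members, in Retnlg-low cells and in the other kept barcodes, so its lower count was not particular to members.

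**Figure D2:**
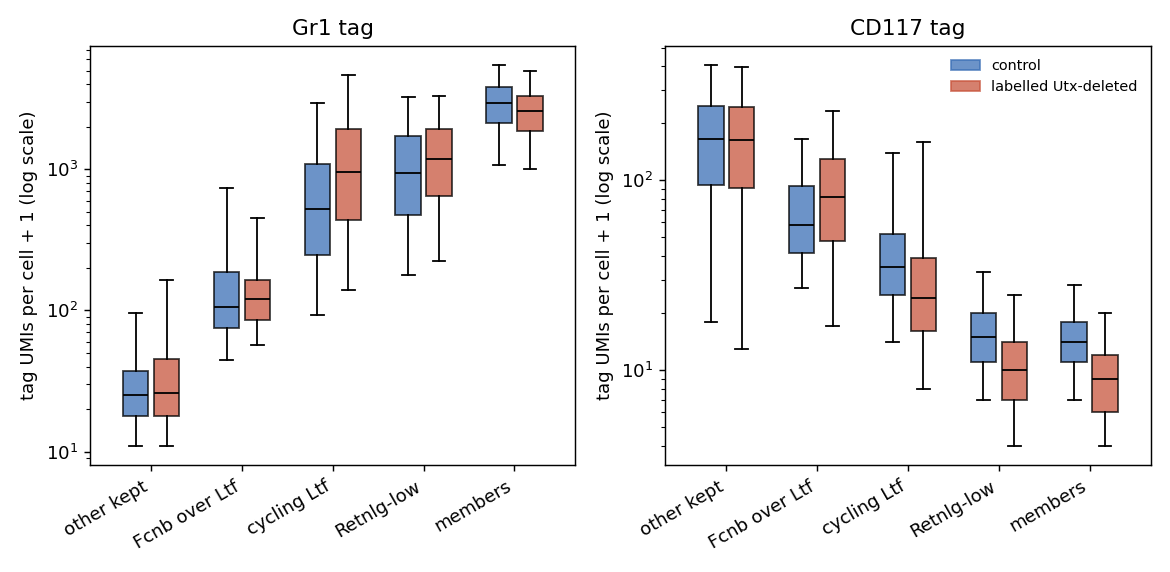
Gr1 and CD117 tag UMIs per cell plus 1 (log scale) in 5 classes of kept barcodes of the control library (blue) and the library labelled Utx-deleted (red). Boxes span the quartiles with the median as a line, and whiskers run from the 5th to the 95th percentile of cells; member medians are 2958 and 2581.5 for Gr1 and 13 and 8 for CD117 before 1 is added.

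What set the members apart from Retnlg-low neutrophils in RNA is a description, since Retnlg chose them. In the control library 428 of 8044 genes with at least 100 UMIs (5.32%) were at least 2-fold higher in members and 649 (8.07%) at least 2-fold lower, and in the other library 338 (4.05%) and 670 (8.04%) of 8338. The genes that stood highest in both libraries included Clec4d, a C-type lectin receptor, at 197 CPM in control members against 4.96 CPM in Retnlg-low cells. They also included Ccl6, a chemokine (126 against 4.61 CPM), the stefin Stfa2l1 (73.4 against 2.19 CPM) and Rhoc, a small GTPase (19.1 against 0.346 CPM). The lowest included Map2k6, a kinase of the p38 pathway, at 1.06 against 22.5 CPM, Orm1, an acute-phase protein, at 26.3 against 220 CPM, and Olr1, a scavenger receptor, at 18.8 against 119 CPM. Among specific granule genes, Camp and Ltf of the definition were lower in members but still abundant, at 27987 CPM in control members against 53288 and at 10629 against 12914. Olfm4, a specific granule gene outside the definition, was higher in members, at 235 against 133 CPM in the control library and 1213 against 1110 CPM in the other.

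The same ordering ran through the members themselves for Camp, Cxcr2, Mmp8 and Ccl6, but not for Olfm4 in the control library. Cells were split by Retnlg UMIs into 20 to 49 (367 control and 341 other cells), 50 to 99 (386 and 363) and 100 or more (272 and 460). These bins are raw counts and are not matched for depth. Retnlg was at 4964 CPM in control members and 3939 CPM in the others in the first bin. It was at 11744 and 9503 CPM in the next bin and at 22649 and 22680 CPM in the last. From the first to the last of these bins Camp went from 35246 to 18729 CPM in control members and from 45048 to 27792 CPM in the others. Cxcr2 went the other way, from 352 to 702 CPM and from 280 to 765 CPM, as did Mmp8, from 4350.5 to 5189 CPM and from 2697 to 4764 CPM. Ccl6 went from 30.8 to 289 CPM in control members and from 9.13 to 197 CPM in the others. Olfm4 was at 236, 303 and 146 CPM in the control bins and at 1119, 1281 and 1235 CPM in the others. The median Gr1 tag, which the definition did not use, went from 2559 to 3318.5 UMIs in the control library and from 2432 to 2673 in the other, while the CD117 tag stayed between 12 and 14 UMIs and at 8.

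The 20-UMI minimum fell inside this continuum. The 91 control and 106 other cells with 15 to 19 Retnlg UMIs had median Gr1 counts of 2170 and 1978.5, and the 85 and 69 cells with 20 to 24 had 2401 and 2422. Cxcr2 was at 232 and 195 CPM just below the minimum and at 292 and 173 CPM just above it.

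**Figure D3:**
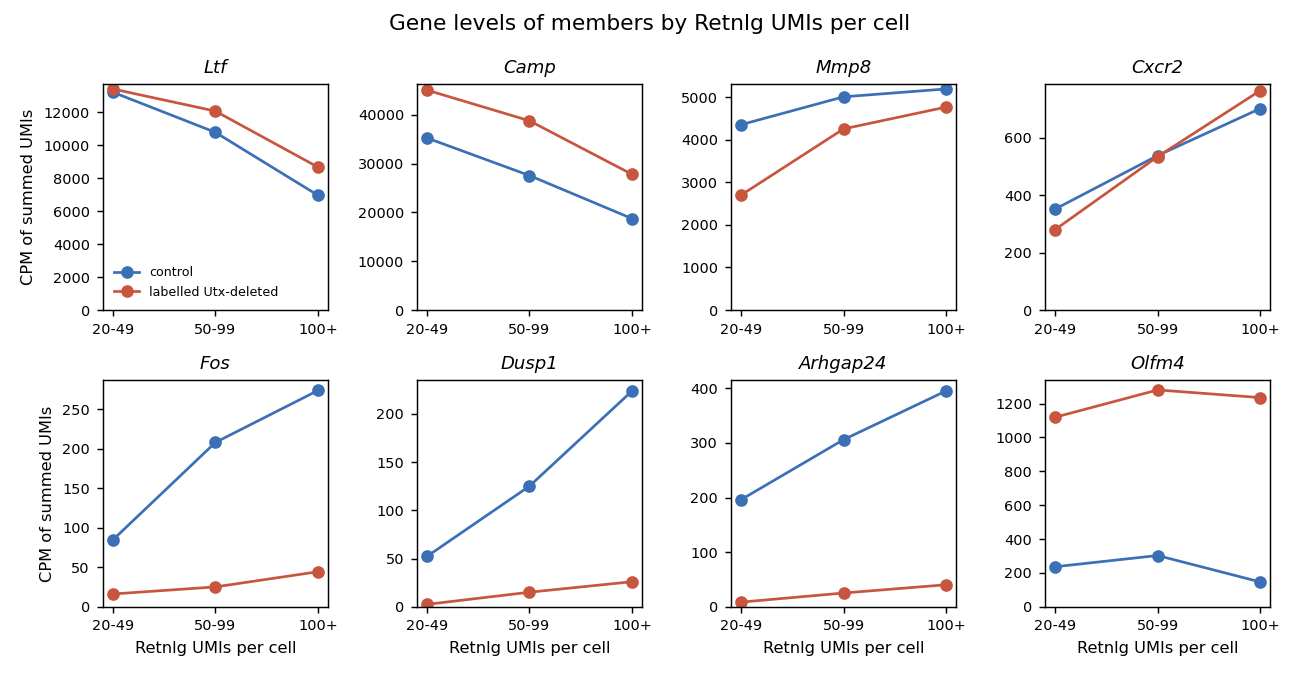
Levels of 8 genes (CPM of UMIs summed over cells) in members with 20 to 49, 50 to 99 and 100 or more Retnlg UMIs, for the control library (blue) and the library labelled Utx-deleted (red), 1 point per library and bin. Ltf and Camp are lower and Mmp8, Cxcr2, Fos, Dusp1 and Arhgap24 higher in the last bin than in the first in both libraries. Fos goes from 84.6 to 274 CPM in the control library and from 16.2 to 44.3 CPM in the other. Olfm4 goes from 236 to 146 CPM in the control library and from 1119 to 1235 CPM in the other.

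Compared between the libraries, genes at least 2-fold lower in members of the library labelled Utx-deleted outnumbered those at least 2-fold higher. Among the gene lists, 3 of 9 measured immediate early genes and 6 of 19 interferon-stimulated genes were past 2-fold lower and 0 of either list past 2-fold higher, where at the same minimum of 20 UMIs 6.73% of 9818 genes were past 2-fold lower and 2.85% higher. Of 6834 genes that reached 100 UMIs in the 2 libraries together, 77 (1.13%) were at least 2-fold higher there and 247 (3.61%) at least 2-fold lower. Past 2-fold between the hashtags of the control library were 11 genes higher in hashtag 2 (0.214%) and 2 lower (0.039%) of 5132, and within the other library 10 (0.175%) and 13 (0.228%) of 5702. Between the libraries, hashtag 1 members alone had 54 genes higher (1.03%) and 154 lower (2.93%) of 5258, and hashtag 2 members 42 (0.747%) and 224 (3.98%) of 5624. Of 5226 genes that could be read in both hashtags, 21 were past 2-fold higher in each hashtag and 106 past 2-fold lower in each, and 1 was past it in opposite directions. In Retnlg-low neutrophils of the same libraries 102 of 8886 genes (1.15%) were past 2-fold higher and 251 (2.82%) lower. The median log2 ratio over all genes was -0.068 in members. TMM scaling, a trimmed-mean normalisation, had a log2 factor of -0.12, which brought that median to 0.052 and the counts to 107 higher and 196 lower, or 35.3% higher of those past 2-fold in place of 23.8%, so ratios of that size have no direction here.

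Olfm4, the gene of olfactomedin 4 (a specific granule protein of a subset of neutrophils; chr14:79984081-80023139, GRCm38), was the most abundant of the genes with the highest ratios. Its level was 235 CPM in control members and 1213 CPM in members of the library labelled Utx-deleted, a log2 ratio of 2.36 (interval 2.29 to 2.44). The difference came almost wholly from 1 hashtag: hashtag 1 cells were at 244 and 2076 CPM, and hashtag 2 cells at 231 and 307 CPM. Only a minority of cells held the transcript. At least 10 Olfm4 UMIs were found in 3.51% of control members (36 cells, interval 2.47 to 4.83%) and in 15.2% of the others (177 cells, interval 13.2 to 17.4%). By hashtag these shares were 3.53% and 3.51% in the control library, and 25.9% in hashtag 1 and 4.04% in hashtag 2 of the other.

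The Olfm4 pattern was not limited to the members. Of Retnlg-low neutrophils 2.62% in the control library held at least 10 Olfm4 UMIs, against 30.1% in hashtag 1 and 3.23% in hashtag 2 of the library labelled Utx-deleted. Of cycling Ltf neutrophils 3.60% did, against 32.2% and 6.89%. No barcode outside the neutrophil classes reached 10 UMIs (0 of 1758 and 0 of 1589, with upper bounds of 0.210% and 0.232%). Any Olfm4 UMI was found in 4.59% and 20.6% of members (4.01% and 17.3% after thinning to 2000 UMIs), and in 1.82% and 11.1% of those barcodes, whose median depths were 26678.5 and 25750 UMIs.

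Of the other genes with the highest ratios, Astn2 was the most abundant in both libraries, and it and Pcdh11x had similar ratios in both hashtags. Astn2 (astrotactin 2, a membrane protein known from neurons; chr4:65380803-66404611) was at 71.9 CPM in control members and 298 CPM in the others, with log2 ratios of 1.90 and 2.16 in the hashtags. Astn2 UMIs occurred in 11.8% and 41.2% of members (7.92% and 26.5% thinned), and in 2.28% and 3.59% of barcodes outside the neutrophil classes. Pcdh11x, an X-linked protocadherin (chrX:120290259-120910619), had 7 UMIs in control members and 579 in the others, a log2 ratio of 5.72 (interval 4.86 to 7.23), with 5.56 and 5.42 in the hashtags. These Pcdh11x UMIs came from 2 cells (0.195%) and 99 cells (8.51%), or 0.0978% and 4.56% after thinning, against 0.853% and 2.08% of barcodes outside the neutrophil classes. In Retnlg-low cells Pcdh11x was at 0.288 and 61.8 CPM.

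The remaining 9 genes at this end had log2 ratios from 2.04 (Dip2c) to 3.17 (Frmpd4). Dip2c was at 19 CPM in control members and 78.7 CPM in the others, Frmpd4, a scaffold protein gene, at 4.10 and 38.1 CPM, and Plcb1, a phospholipase C, at 3.04 and 28.1 CPM. Plcb1 was uneven, with log2 ratios of 5.35 and 2.26 in the hashtags. Csrp2, a LIM-domain protein, was at 2.74 and 19.1 CPM and Ppm1e, a phosphatase, at 4.41 and 30.8 CPM. Hmga2, a chromatin protein of immature cells, was at 2.43 and 12.03 CPM, and 1700006J14Rik, annotated as antisense RNA within the same stretch of chromosome 10, at 10.6 and 45.9 CPM. Both were uneven inside the library labelled Utx-deleted, with Hmga2 at 4.54 and 19.9 CPM in its hashtags and 1700006J14Rik at 19.5 and 73.7 CPM, and their log2 ratios by hashtag were 1.57 and 2.55 for Hmga2 and 1.81 and 2.38 for 1700006J14Rik. Several of these genes were found in a larger share of barcodes outside the neutrophil classes than of members. These shares were not matched for depth, with medians of 25750 UMIs in those barcodes and 7346.5 in members of the library labelled Utx-deleted. In the library labelled Utx-deleted Csrp2 was in 12.2% of members and 64.6% of those barcodes, Plcb1 in 8.42% and 58.9%, Dip2c in 25.9% and 49.9%, Ppm1e in 12.4% and 30.7%, and Hmga2 in 5.41% and 23.1%. The part of RNA from those barcodes in these ratios was not tested. Strand handling is not given in the sources used here, so reads of these overlapping genes may be mixed.

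**Figure D4:**
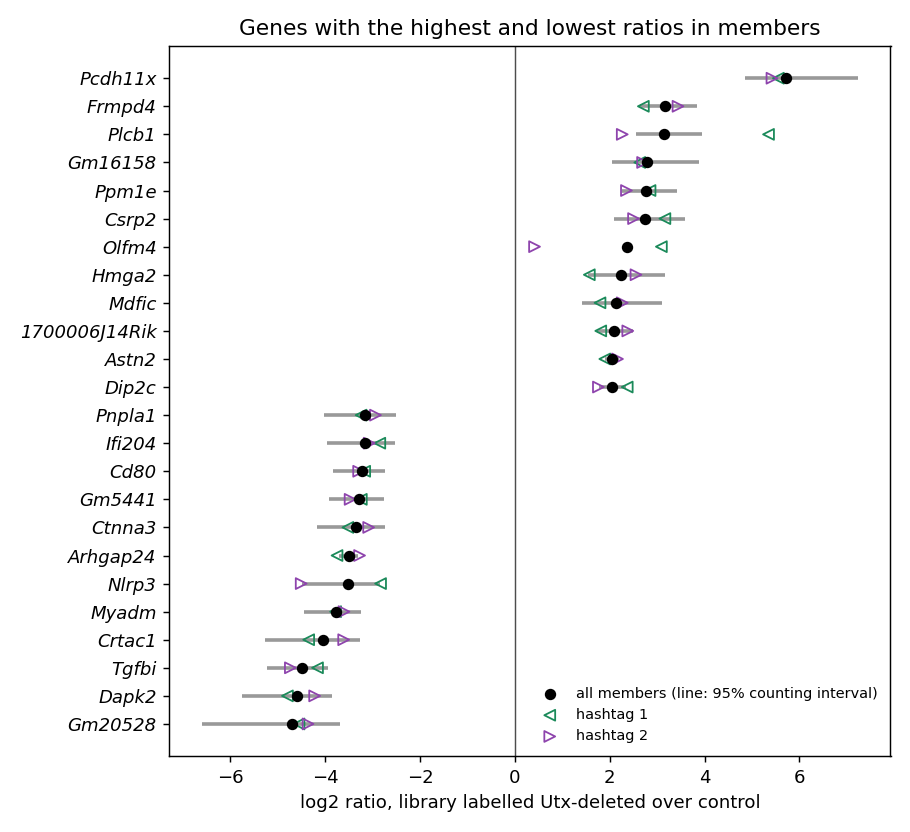
Log2 ratios (library labelled Utx-deleted over control, 1 UMI added to each sum) in members for the 12 highest and 12 lowest genes of the rule for named genes, over all members (black, with 95% counting intervals) and for each hashtag (open triangles). Hashtag values keep the sign of the whole for each gene shown, by that rule; Olfm4 has 3.09 in hashtag 1 and 0.41 in hashtag 2.

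Among the genes with the lowest ratios, Arhgap24 was the most abundant in control members. Arhgap24, a GTPase-activating protein for Rac (chr5:102481391-102897937), was at 290 CPM in control members (305 and 280 in the hashtags) and at 25.6 CPM in the others (22.5 and 28.7), a log2 ratio of -3.49 (interval -3.70 to -3.30). It was found in 58.9% and 10.2% of members, or 37.6% and 5.16% after thinning, and in 9.61% and 14.9% of barcodes outside the neutrophil classes. Within the control library it belonged to the genes that marked members off from Retnlg-low cells, which held 28.5 CPM, and those of the library labelled Utx-deleted held 0.706 CPM. In both libraries it was higher with more Retnlg, at 196, 306 and 395 CPM in the control bins and 8.43, 25.1 and 40.2 CPM in the others.

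The other genes at this end were less abundant. Tgfbi, a secreted matrix protein, was at 59.3 and 2.54 CPM (log2 ratio -4.49, interval -5.22 to -3.94), and Dapk2, a death-associated kinase abundant in granulocytes, at 32.1 and 1.21 CPM (-4.60, interval -5.75 to -3.85). Nlrp3, the inflammasome sensor, was at 20.2 and 1.66 CPM (-3.53), Cd80, a costimulatory ligand, at 35.1 and 3.64 CPM (-3.23), and Ifi204, an interferon-inducible DNA sensor, at 20.5 and 2.21 CPM (-3.16). Myadm, a membrane protein of myeloid cells, stood at 42.2 and 2.98 CPM, and Ctnna3, a catenin, at 23.6 and 2.21 CPM. Crtac1, Pnpla1, Gm20528 and Gm5441 completed the group with log2 ratios from -4.70 to -3.16. Each of these genes was lower in both hashtags, since the rule required it, and each was also lower in Retnlg-low cells, from -2.12 (Gm5441) to -6.76 (Dapk2).

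Specific granule genes had a median log2 ratio of 0.29 between the libraries, at 0.11 in hashtag 1, which is smaller than the shift between scalings, and 0.39 in hashtag 2. Ltf, Camp, Ngp and Lcn2 of this list, and S100a8 and S100a9, belong to the definition, so their values and the list median are a description only. Of 11 measured genes of the list 9 were above 0 and 1 (Olfm4) was past 2-fold higher. Among all 9818 genes with at least 20 UMIs, the minimum for list genes, 2.85% were past 2-fold higher and 6.73% past 2-fold lower. Counts of list genes past 2-fold in the paragraphs below are to be read beside these shares. Camp was at 27987 CPM in control members and 36585 CPM in the others (0.39), Ngp at 20275 and 25420 (0.33), Lcn2, the siderophore-binding protein, at 10041 and 12771 (0.35), and Chil3, a chitinase-like protein, at 2287 and 3906 (0.77). Ltf was at 10629 and 11195 CPM (0.07) and Lyz2, lysozyme, at 12255 and 12288. S100a8 and S100a9, the subunits of calprotectin, were at 61266 and 84305 CPM (0.46) and at 105336 and 125864 CPM (0.26). These 2 genes and the other 4 granule genes of the definition took a median of 22.9% of a control member's UMIs and 29.3% in the other library. The same quantity was 23.2% and 22.8% in the hashtags of the control library and 28.8% and 29.99% in those of the other. In Retnlg-low cells, Camp differed by 0.08 and S100a8 by 0.38.

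Late maturation genes had no common direction. Of 14 gelatinase granule and late genes 9 were below 0 and 5 above, with a median of -0.24 (-0.12 under TMM). Prok2, a secreted chemoattractant, was the 1 past 2-fold, at 33.9 and 11.8 CPM (-1.51). Mmp8 was at 4813 and 3957 CPM (-0.28, in hashtags -0.30 and -0.27), Il1r2, the decoy receptor of interleukin 1, at 308 and 185 CPM (-0.74), and Mmp25 at 372 and 257 CPM (-0.53). Mmp9, gelatinase B, was at 2966 and 3373 CPM (0.19) and Wfdc21, a secreted inhibitor-like protein, at 3446 and 4974 CPM (0.53). In the lowest Retnlg bin Mmp8 was at 4350.5 CPM in control members and 2697 CPM in the others, and in the highest at 5189 and 4764 CPM.

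Of 17 measured receptors for chemotaxis and adhesion 13 were below 0 and 4 above, with a median of -0.21 (-0.18 and -0.25 in the hashtags), and 1 was past 2-fold. That 1 was Itgal, the integrin subunit of LFA-1, at 212 CPM in control members (210 and 213 in the hashtags) and 91.6 CPM in the others (90.8 and 92.3). Cd44, an adhesion receptor, was at 823 and 643 CPM (-0.36). The chemokine receptors Cxcr2 (514 and 542 CPM) and Cxcr4 (202 and 199 CPM), which act in release from and retention in the marrow, and Csf3r, the G-CSF receptor (511 and 443 CPM), had log2 ratios of 0.08, -0.02 and -0.21. Among 16 Fc and pattern receptors (median -0.38) Nlrp3, named above, was the 1 past 2-fold. Clec4d (197 and 101 CPM, -0.96), Trem1 (125 and 69.4 CPM, -0.85) and Fcgr4 (64.9 and 40.6 CPM, -0.68) came next.

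Immediate early genes respond to a stimulus before any new protein is made. Of 9 measured genes of this list 3 were past 2-fold lower in members of the library labelled Utx-deleted, where 6.73% of all 9818 genes with at least 20 UMIs were. The rest were within 2-fold. All 9 were below 0, with a median of -0.83 (-0.47 in hashtag 1 and -1.08 in hashtag 2). Fos, a subunit of AP-1, was at 180 CPM in control members (172 and 185 in the hashtags) and at 29.6 CPM in the others (35.0 and 23.98), a log2 ratio of -2.60 (interval -2.81 to -2.42). Dusp1, whose promoter is shown above, was at 125 CPM (111 and 133) and 15.2 CPM (15.1 and 15.4), a log2 ratio of -3.03 (interval -3.31 to -2.78). Zfp36, which destabilises cytokine messengers, was at 367 and 178 CPM (-1.04), past 2-fold by less than the TMM shift, so its call does not stand under that scaling. Btg2 was at 313 and 175 CPM (-0.83), Junb at 72.0 and 42.7 CPM (-0.75) and Jund at 108 and 91.0 CPM (-0.24). In Retnlg-low cells Fos was at 12.7 and 5.74 CPM and Dusp1 at 6.86 and 1.65 CPM.

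Fos and Dusp1 were graded within the members. Across the 3 Retnlg bins Fos was at 84.6, 208 and 274 CPM in control members and at 16.2, 25.1 and 44.3 CPM in the others. Dusp1 was at 52.2, 125 and 224 CPM and at 2.46, 15.1 and 26.0 CPM. Each control bin was thus above each bin of the other library for both genes. Weighting the bins alike in both libraries gave log2 ratios of -2.73 for Fos and -3.19 for Dusp1. The bins hold like Retnlg counts but not like Retnlg CPM, so neither comparison matches the libraries for Retnlg level.

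Of 10 measured genes of the list of cytokines and NF-kB feedback 3 were past 2-fold lower, where 6.73% of all 9818 genes with at least 20 UMIs were. Osm, oncostatin M, was at 134 CPM in control members (116 and 145 in the hashtags) and at 29.9 CPM in the others (31.8 and 27.6), a log2 ratio of -2.16. Il1b had 146 and 27 UMIs (22.2 and 2.98 CPM, -2.85). Cxcl2, a neutrophil chemoattractant, had 50 and 11 UMIs (-2.55), with log2 ratios of -0.74 in hashtag 1 and -3.92 in hashtag 2. Tnf (16.9 and 13.5 CPM), Il1rn (87.5 and 70.4 CPM) and Nfkbia (141 and 157 CPM), by contrast, were within 2-fold. The median of the list was -0.47. Of the 6 measured eicosanoid enzymes, Ptges, a prostaglandin E synthase, was past 2-fold at 24.2 and 10.9 CPM (-1.14), and Alox5, the 5-lipoxygenase, was at 320 and 263 CPM (-0.28).

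Interferon-stimulated genes were below 0 in 15 of 19 cases, with a median of -0.49 (-0.35 and -0.75 in the hashtags), and 6 were past 2-fold. Rtp4 was at 30.4 and 8.28 CPM (-1.86) and Oasl2 at 28.9 and 13.2 CPM (-1.12), and the other 4 (Ifit1, Ifit3, Ifi47 and Slfn5) each had under 100 UMIs. Isg15, a ubiquitin-like protein, was at 27.2 and 19.4 CPM (-0.49) and Slfn4, a schlafen of myeloid cells, at 499 and 407 CPM (-0.29). The Ifitm genes, which encode membrane proteins that restrict viruses, were split. Ifitm2 was at 572 CPM in control members (606 and 552 in the hashtags) and 201 CPM in the others (137 and 266), a log2 ratio of -1.51, and Ifitm1 at 27.1 and 10.5 CPM (-1.36). Ifitm3, at 632 and 667 CPM, and Ifitm6, at 2390 and 2266 CPM, had ratios of 0.08 and -0.08.

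The stefin A cluster, cysteine protease inhibitors that are known from late mouse neutrophils, had 3 of 6 measured genes past 2-fold lower. Of all 9818 genes with at least 20 UMIs 6.73% were. The median of the list was -0.87, at -0.44 in hashtag 1 and -1.11 in hashtag 2. Cstdc4 had 490 and 151 UMIs (-2.15), Cstdc5 149 and 55 (-1.88) and Stfa2l1 483 and 326 (-1.03). Stfa2l1 was past 2-fold by less than the TMM shift, so its call does not stand under that scaling. Stfa1, in contrast, had 147 and 310 (0.61). These genes are near-identical copies of each other, so the split of reads among them is uncertain.

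Azurophil granule genes, which belong to the progenitor stage, were low in members, and of 7 measured genes 6 were below 0 and 1 (Elane, log2 ratio 0.53) was above. Mpo was at 78.6 and 76.1 CPM, a log2 ratio of -0.05 that is smaller than the shift between scalings, and Elane at 79.8 and 115 CPM in the 2 libraries. In the library labelled Utx-deleted 1 barcode held 312 of 1044 Elane UMIs and 1 held 620 UMIs of the list, and the log2 ratio of Elane was -0.42 in hashtag 1 and 1.12 in hashtag 2. The list, at 356 and 388 CPM in the hashtags of the control library and 230.3 and 508 CPM in those of the other, had a median of -0.27, at -0.72 in hashtag 1 and 0.18 in hashtag 2. Cst7 and Prss57, with 34 and 43 UMIs in control members and 21 each in the others, were past 2-fold lower. All 15 measured genes of the cell cycle list, which leaves out Mki67 and Top2a of the definition, were below 0 (Ccna2, at -0.099, by less than the shift between scalings), with a median of -0.68. Cdc20 and Cdk1 were past 2-fold at 22 and 14 UMIs and at 43 and 28 UMIs. The lowest ratio of the list was -1.08, past 2-fold by less than the TMM factor of -0.12, so neither call stands under TMM scaling. The definition allows a cell at most 1 UMI of Mki67 and Top2a whatever its depth, and members of the library labelled Utx-deleted were deeper (medians of 7346.5 and 5957 UMIs), so the same limit was stricter there, and its part in these ratios was not tested.

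In short lists for effector machinery, gene control and metabolism few or no genes were past 2-fold. Over all genes the share was 9.58% of 9818 with at least 20 UMIs and 4.74% of 6834 with at least 100 UMIs. Each list is too short for its count to be told apart from those shares. No gene of the NADPH oxidase (8 measured, median -0.09), of the myeloid transcription factors (16, median -0.02), of glycolysis (13, median -0.19) or of apoptosis and survival (10, median -0.16) was past 2-fold. Cybb, the catalytic oxidase subunit, was at 2545 and 2729 CPM and Ncf1 at 1039 and 1131 CPM. Spi1 was at 514 and 518 CPM and Cebpe, a factor of granule gene expression, at 155 and 149 CPM. In the actin list 1 of 14 was past 2-fold. It was Tmsb10, thymosin beta 10, which binds actin monomers, at 238 CPM in control members (214 and 253 in the hashtags) and 72.8 CPM in the others (75.03 and 70.6), a log2 ratio of -1.71, while its relative Tmsb4x was at 24366 and 24878 CPM. S100a10, at 55 and 13 UMIs (-2.46), was the 1 S100 gene of 6 past 2-fold, and the median of that list was 0.19.

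No measured gene of the complexes to which UTX belongs was past 2-fold, where 9.58% of all 9818 genes with at least 20 UMIs were. For a list this short that count is near the share over all genes. Of 10 genes of the UTX, MLL3 and MLL4 complexes 7 were below 0, with a median of -0.14, which was -0.023 with TMM scaling. Kmt2c (MLL3) was at 280 and 240 CPM, Kmt2d (MLL4) at 62.2 and 65.7 CPM, and Kdm6b, the related demethylase, at 134 and 104 CPM (-0.37). Of 9 genes of the Polycomb repressive complex 2, which writes the mark that UTX removes, 5 were below 0, with a median of -0.07. Ezh2, the catalytic subunit of dividing cells, was at 11.5 and 11.03 CPM and Ezh1 at 36.3 and 30.3 CPM.

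**Figure D5:**
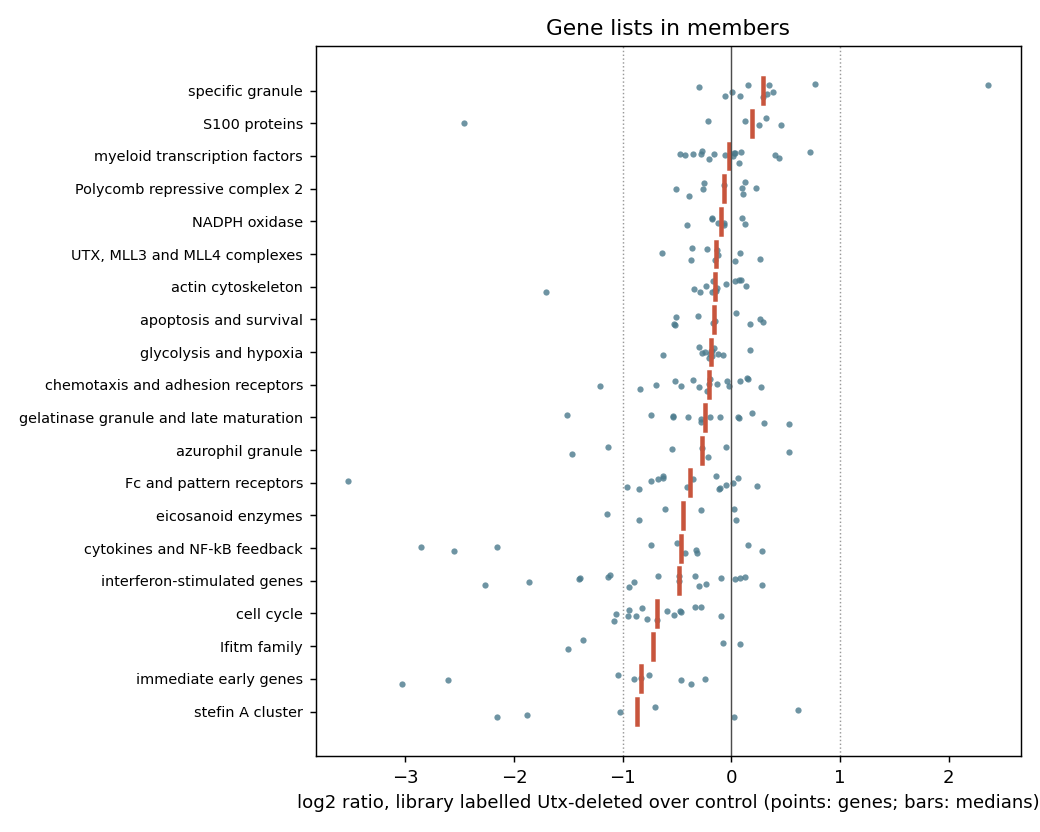
Log2 ratios in members (library labelled Utx-deleted over control) of genes with at least 20 UMIs in each gene list other than the cell type markers (points) and the median of each list (red bar), with dotted lines at a 2-fold difference. Medians of these lists run from -0.87 (stefin A cluster) and -0.83 (immediate early genes) to 0.29 (specific granule).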

How the data were processed

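Kit-positive bone marrow cells were profiled with 10x Genomics 3' chemistry and barcoded antibodies, per the labels' protocols. The deposited matrices hold raw UMI counts per feature and barcode for 32285 genes and 15 tags, from Cell Ranger 7.1.0 as stated per the file headers, with mm10 named in the submitters' processing notes. Barcodes with at least 500 genes and under 10% mitochondrial UMIs were kept, unless both hashtags had at least 100 UMIs within 5-fold (380 and 699 barcodes, of which 29 and 60 would have been members). No doublet caller was run, so doublets within a hashtag remain. Retained counts were summed over members per library and scaled to CPM, with 1 UMI added to each sum for log2 ratios, in Python 3.11.15 with numpy 2.4.6, scipy 1.17.1 and pandas 2.3.3. Intervals are Clopper-Pearson for shares, Newcombe's score interval for the difference of shares and exact conditional binomial for ratios. Named genes are the 12 highest and the 12 lowest past 2-fold among genes with at least 100 UMIs, of 1 sign in both hashtags, and found in at least 5% of members of the library where they are higher. For members against Retnlg-low cells the same rule took 10 each way with 1 sign in both libraries. Gene lists use genes with at least 20 UMIs. Some list genes are counted but not reported here by name. Members and lists were chosen with earlier results of these data known. Code was tested on simulated counts. Gene coordinates come from GENCODE M21 (GRCm38).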

Additional observations from a re-analysis of the deposited data

How the results depend on the processing

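The member share difference of 2.26 points lay between 1.75 and 2.41 points under 7 other thresholds and filters. It was 6.39 points in hashtag 1 and -1.55 points in hashtag 2, the opposite direction. The cause was not tested. With neutrophils thinned to 5000 UMIs the difference was 4.33 points. That setting counted 825 control members and 1129 others, in place of 1025 and 1164. The lower quartile of member depth was 4913 UMIs for controls and 6154 for the others. The loss thus fell mostly on control members, so 4.33 points is not a share difference corrected for depth. The count of 324 genes past 2-fold was 941 and 105 at minimums of 20 and 500 UMIs, 950 at 1.5-fold, 178 after thinning to 2000 UMIs and 208 in hashtag 1, where fewer genes could be read, and between 266 and 348 under 10 other settings, TMM included. Without the 2 members rich in globin or immunoglobulin UMIs, left out after seeing the data, 314 genes were past 2-fold, 63 of them higher. The Gr1 ratio of 0.05 was -0.18 without scaling and 0.42 as a centred log-ratio, on which CD16_32 was at 0.034 and CD135 at 0.22, the opposite direction to their shares. Without scaling CD11b went from 0.11 to -0.12 and CD127 from 0.036 to -0.19. Cxcr2 was at -0.0095 with equal Retnlg bins and -0.013 in hashtag 1, Retnlg at -0.12 with equal bins, Ltf at -0.011 in hashtag 1 and the azurophil list at 0.18 in hashtag 2, each opposite in sign to its ratio over all members. Of 294 values for named genes 4 reversed, 96 moved past their counting interval and 194 did not. No paired analysis was possible because each group has 1 library. Depth limits genes under 100 UMIs, whose ratios rest on few molecules.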
